A study of Mus musculus with 16 samples.

Results

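Where monoubiquitylated histone H2B (H2Bub1) lay beside RNA polymerase II (Pol II) was examined gene by gene in mouse embryonic stem cells (mESCs) that lack Atxn7l3 (KO). The 2 peak lists of these cells, 1 of H2Bub1 and 1 of Pol II, were used out of the 8 peak lists of H2Bub1 or Pol II among the 16 samples that the labels describe. Members were chosen by those labels, and the 2 lists were joined over all 21938 protein-coding genes of 21 chromosomes. Each gene was given the strongest Pol II peak within 1000 bp of its transcription start site (TSS), the Pol II bases in its body, and the share of the body inside H2Bub1 peaks (the covered share). The value of a Pol II promoter peak is its fold, the linear ratio of reads at the summit over the local background used in peak calling. The control behind that background is not given in the sources used here.

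Both chromatin samples came from cells of labelled genotype Atxn7l3-/- on a DBA/2 x C57BL/6 background, derived from blastocysts of heterozygous matings. The cells were passaged on feeders and then without them, in medium with LIF, 15% FCS, the MEK inhibitor PD0325901 at 1 uM and the GSK3 inhibitor CH99021 at 3 uM. N-ethylmaleimide, which blocks ubiquitin proteases, was in the buffers, and the antibodies were raised against H2Bub1 and against RPB1, the largest Pol II subunit. Wild-type mESCs (WT) of the same strain and culture, and Atxn7l3-/- mouse embryonic fibroblasts (MEFs) from E10.5 embryos in 10% FCS without these inhibitors, are set beside them. Every group is 1 library (n = 1), and the labels do not say how many cell lines or cultures stand behind it. There is thus no replicate error, no test between libraries and no p-value. The 95% intervals given beside shares, medians and correlations cover counting over genes only, and genes of 1 library are not replicates. The read depth is unknown, and a fold is set against the background used in calling its own list. Values of WT mESCs and KO MEFs are thus descriptions side by side and set no level across libraries.

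ATXN7L3 is an adaptor of USP22, USP27X and USP51, the proteases that take ubiquitin off histone H2B, and they depend on it for activity. The mark is laid down by the ligase RNF20/RNF40 with the conjugating enzymes UBE2A and UBE2B, which travel with elongating Pol II through the PAF complex, and it is therefore known as a mark of transcribed gene bodies. Pol II itself gives its sharpest ChIP signal just downstream of the TSS, where it pauses before elongation.

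The Pol II list held 11963 peaks with a median width of 495 bp that covered 7.65 Mb, and the H2Bub1 list held 48952 peaks with a median width of 1355 bp that covered 151 Mb. Chromosome X stood apart between the libraries: 21.5% of its 948 genes had a Pol II promoter peak in KO mESCs and 9.60% in WT mESCs, against 32.1% and 35.3% of autosomal genes. At the targeted gene Atxn7l3, the KO lists had a Pol II promoter fold of 3.71 and a covered share of 62.5%. That Pol II summit sat at -513 bp from the TSS, and another gene lies 62 bp away. The KO list also had 2227 bp of Pol II in the body of Atxn7l3, all more than 1000 bp from the TSS. In the WT list the gene had a fold of 3.61 and was covered over 100%. The genotype is given as labelled, since where these peaks lie against the targeted exons was not examined and the lists do not measure expression. The marker lists are to be read against the shares over all genes, 31.3% with a Pol II promoter peak and 60.8% with H2Bub1. Among stem cell markers, 14 of 19 pluripotency genes had a Pol II promoter peak and all 19 had H2Bub1, with a median covered share of 87.3%. Of 14 fibroblast markers, which would show feeder cells, none had a Pol II promoter peak and 3 had some H2Bub1, up to 52.2% of the body at Twist1, a mesenchymal transcription factor gene. None of 6 trophoblast and primitive endoderm markers had a Pol II promoter peak, 3 had H2Bub1, and their highest covered share was 20.3%, at Cdx2.

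Nearly every promoter with Pol II lay at a gene with H2Bub1, but H2Bub1 was not limited to such genes. A Pol II promoter peak was present at 6876 of the 21938 genes (31.3%), and an H2Bub1 peak reached the body of 13332 (60.8%). Both marks were found at 6726 genes (30.7%), which is 97.8% (97.4 to 98.2%) of those with promoter Pol II. Only 150 genes (0.684%) had the Pol II peak and no H2Bub1, a count that was 789 with peaks at a −log10 q of at least 3 and 1305 with H2Bub1 called from 10% cover on. Among the 15062 genes without a Pol II promoter peak, 6606 (30.1% of all genes) still had H2Bub1, a share of 43.9% (43.1 to 44.7%). That count was 3827 with the stricter peaks and 4340 with the 10% call. The remaining 8456 genes had neither mark. The 6876 genes rested on 6026 distinct Pol II peaks, and 1663 of them (24.2%) shared their peak with another gene.

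The 2 classes with H2Bub1 differed in cover at similar gene length. Genes with both marks had a median covered share of 42.1% (40.7 to 43.6%), or 7.08 kb of a median length of 24.4 kb, and a median H2Bub1 fold of 3.22. Genes with H2Bub1 alone were of similar length, 22.3 kb, with a median covered share of 20.8% (19.7 to 22.1%), 3.61 kb covered and an H2Bub1 fold of 2.76. The 150 genes with Pol II alone were shorter, with a median of 7.79 kb, and 54 of them (36.0%) had a single exon, against 2.65% of the genes with both marks. Over the 6876 genes with promoter Pol II the median covered share was 40.8% (39.5 to 42.3%), and 784 of them (11.4%) were covered from end to end. With peaks at a −log10 q of at least 3 that median was 21.5%.

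The same join in the other cells gave other proportions in WT mESCs and in KO MEFs. In WT mESCs, 7427 genes (33.9%) had a Pol II promoter peak and 11761 (53.6%) had H2Bub1. Both marks were at 6809 (31.0%), Pol II alone at 618 (2.82%) and H2Bub1 alone at 4952 (22.6%). KO MEFs had Pol II at 11213 promoters (51.1%) and H2Bub1 at 11631 genes (53.0%). There, both marks were at 10462 genes (47.7%), Pol II alone at 751 (3.42%) and H2Bub1 alone at 1169 (5.33%). Of all genes with H2Bub1, 50.5% (49.6 to 51.3%) had a Pol II promoter peak in KO mESCs, 57.9% in WT mESCs and 89.9% in KO MEFs, so the excess of H2Bub1 over called Pol II promoters was in the stem cell lists. The stem cell lists also called fewer Pol II promoters, and the part that Pol II calling plays in this was not tested.

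To relate the marks by gene strength, the 6876 genes were split into 5 equal groups (quintiles) by Pol II promoter fold, with ranges of 1.70 to 3.66, 3.66 to 4.26, 4.26 to 5.00, 5.00 to 6.34 and 6.34 to 39.6. H2Bub1 was close to saturated from the weakest quintile on: the share of genes with H2Bub1 was 96.9% in the weakest, then 98.0%, 98.8% and 99.1%, and 96.1% in the strongest. The covered share was nearly flat over the first 4 quintiles, with medians of 39.5% (36.7 to 41.9%), 37.4%, 38.4% and 40.8%, and rose to 51.0% (47.1 to 54.9%) in the strongest. The difference between the strongest and the weakest quintile was 11.5 percentage points (6.93 to 16.3). Genes of the strongest quintile were also shorter, with a median length of 18.7 kb against 22.2 to 28.8 kb in the others. The height of H2Bub1 over the covered part went up step by step, with a median fold of 3.06, 3.15, 3.20, 3.27 and 3.55. Across the 6876 genes, Spearman's rho of Pol II fold with covered share was 0.066 (0.043 to 0.090), and with H2Bub1 fold it was 0.27 over the 6726 genes with both marks. At genes at least 5000 bp from any other, the difference was 19.3 points and the rho with covered share 0.13, and with peaks at a −log10 q of at least 3 that rho was 0.10.

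**Figure D1:**
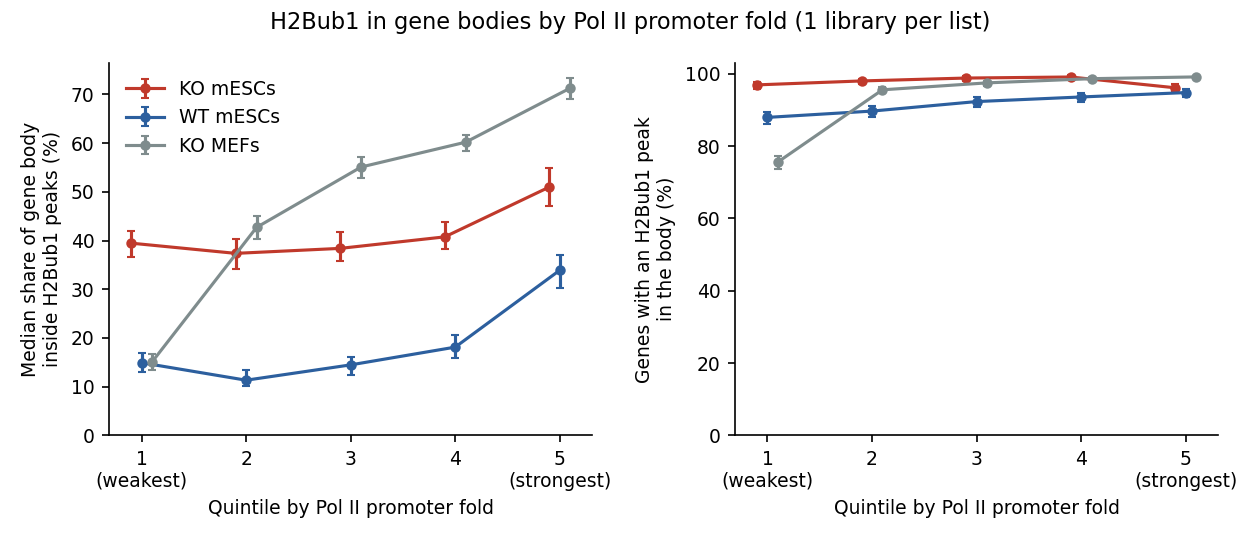
Median share of the gene body inside H2Bub1 peaks (left, percent) and share of genes with an H2Bub1 peak (right, percent) by quintile of Pol II promoter fold, with 1 library per list. Points are medians or shares over genes and bars their exact 95% intervals. The KO mESC medians lie between 37.4% and 40.8% in quintiles 1 to 4 and reach 51.0% in quintile 5, while the KO MEF medians climb from 15.1% to 71.3%.

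The rho was higher in the 2 other pairs of lists. In WT mESCs the median covered share went from 14.9% in the weakest quintile to 33.9% in the strongest, and the rho of fold with covered share was 0.18. In KO MEFs it went from 15.1% to 71.3%, the share of genes with H2Bub1 from 75.6% to 99.2%, and rho was 0.42. The KO MEF list calls Pol II at more promoters. When only its 6876 strongest promoters were kept, a setting chosen once these values were known, rho was 0.17, the median covered share 61.8% and the share of genes with H2Bub1 98.4%. At promoters with Pol II in both mESC genotypes, covered shares were compared as KO list minus WT list. The median difference was 14.5 percentage points in the weakest KO quintile and 7.88 in the strongest. The gap between strong and weak promoters was thus narrower in the KO list than in the WT list, by values of 1 library each. The H2Bub1 list covered 151 Mb in KO mESCs and 71.6 Mb in WT mESCs, and a share is bounded at full cover. The part of either was not tested.

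The genes at the extremes of each measure are described here with both values. Gtf3c6, which codes for a subunit of the general factor of Pol III, had the highest Pol II promoter fold of all, 39.6, with a summit at -482 bp from its TSS and a covered share of 42.3%. Another gene lies 666 bp from it. Hist1h1a and Hist1h3a, a linker and a core histone gene, shared a single peak with a fold of 36.7 and had no H2Bub1 at all. Its summit lay 273 bp inside Hist1h1a and at -1553 bp from the TSS of Hist1h3a, outside the 1000 bp window that the peak extends into. The next genes without H2Bub1 were also histone genes, Hist1h3e with a fold of 25.8, Hist1h1c with 22.9 and Hist1h1b with 21.8. Next over all genes came Eapp, which codes for a nuclear protein associated with E2F factors, with a fold of 27.4 and a covered share of 8.50%. The summit sat at -875 bp from the TSS of Eapp, with 230 bp of Pol II in the body. Poldip3, involved in mRNA export and translation, had a fold of 27.03, with a summit at -426 bp, and a covered share of 92.9%. Among these 5 genes, the strongest once predicted genes are skipped, the covered share took values from 0% to 92.9%. At the other end, Zmynd8, a reader of histone marks, had a weak promoter peak with a fold of 3.27 and 92.2% of its 115 kb inside H2Bub1 peaks.

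**Figure D2:**
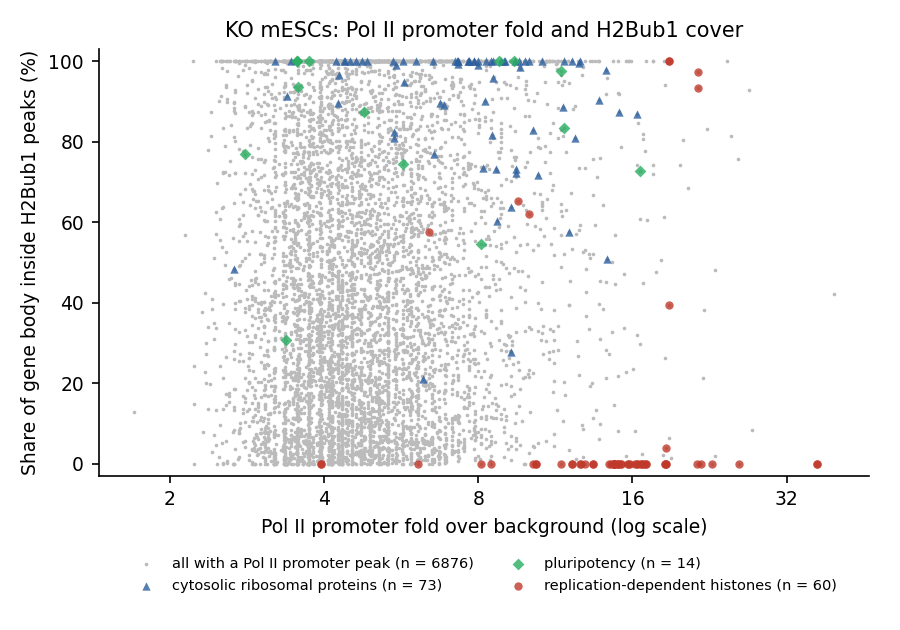
Share of the gene body inside H2Bub1 peaks (percent) against Pol II promoter fold (log scale) in KO mESCs, with 1 point per gene for 6876 genes. Ribosomal protein genes (73) sit mostly at the top, and the 60 replication-dependent histone genes sit at high Pol II fold, mostly at 0%.

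The replication-dependent histone genes went against the rule, with strong Pol II and mostly no H2Bub1. These genes code for the core histones H2A, H2B, H3 and H4 and the linker histone H1, have no introns as a rule, end in a stem-loop instead of a poly(A) tail and are transcribed in S phase. Of 67 such genes, 60 had a Pol II promoter peak, with a median fold of 15.1 (range 3.94 to 36.7). Of these 60, 57 were in the strongest quintile. Neighbours often had the same fold, such as Hist1h2ae and Hist1h2bg at 14.7, since 1 peak can reach several of these genes. They are thus not separate observations, and the interval given next does not allow for this. Only 9 of the 60 had H2Bub1 in the body, a share of 15.0% (7.10 to 26.6%), against 98.5% (98.2 to 98.8%) of the 6816 other genes with Pol II. They account for 51 of the 150 genes with Pol II alone. With them left out, the share of genes with H2Bub1 in the strongest quintile was 99.6%, its median covered share 52.1%, and that of the weakest 39.1%. The lower share in the strongest quintile given above was therefore found at these genes.

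Other short genes and other genes of 1 exon mostly had H2Bub1, but they were longer than the histone genes. Of 214 other genes under 2 kb with Pol II at the promoter, 95.3% (91.6 to 97.7%) had H2Bub1, and of the 92 among them with 1 exon, 93.5% (86.3 to 97.6%). Their median lengths were 1428 bp and 1252 bp, against 532 bp for the 60 histone genes, and the part of length was not tested. Of 226 other genes with Pol II on the whole of chromosome 13, 98.7% had H2Bub1. Pol II peaks held the whole body at 40 of the 60 histone genes, with a median of 100% of the body, against 33.0% at the 214 other, longer genes. H2afx (fold 24.4), a histone variant gene of 1.38 kb with 1 exon, was covered by H2Bub1 over 100% of its body. H2afz, the gene of the variant H2A.Z, had a fold of 14.8 and a covered share of 56.8%. Both variants were named after their values were seen.

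All 5 histone classes shared the pattern. None of the 6 H1 genes had H2Bub1, although 4 had Pol II with a median fold of 22.3, whereas all 6 had H2Bub1 in the WT mESC list. H2Bub1 was found at 3 of 18 H2A genes, 3 of 18 H2B genes, 2 of 12 H3 genes and 1 of 13 H4 genes, while Pol II was at 16, 15, 12 and 13 of them. The clusters differed: on chromosome 13, 2 of 48 genes with Pol II had H2Bub1, and on chromosome 3, 6 of 10. In the larger block of chromosome 13 (chr13:23531050-23934851, GRCm38, 31 histone genes), H2Bub1 peaks covered 1.19 kb and Pol II peaks 45.5 kb. In the other block (chr13:21715763-22043676, 23 histone genes) the lengths were 3.69 kb and 26.8 kb. The WT mESC list had 19.1 kb and 10.7 kb of H2Bub1 in these blocks, and the KO MEF list 36.4 kb and 23.1 kb. In WT mESCs, 38 of 62 histone genes with Pol II (61.3%, 48.1 to 73.4%) had H2Bub1, and in KO MEFs 33 of 59 (55.9%, 42.4 to 68.8%), so the KO mESC list had the fewest of the 3. Copies of these genes are close to identical, and how reads that map to several copies were treated is not given in the sources used here, so the value at any single copy is uncertain.

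The promoter sequences were then read to see what these genes share. The lines below give the 150 bases that end just upstream of the TSS, 5′ to 3′ on the strand of the gene, from the RefSeq sequence of GRCm38, with TATAAA and CCAAT (or its reverse complement ATTGG) in capitals. Hist1h1a (chr13:23763516-23763665, plus strand) and Hist1h3a (chr13:23762387-23762536, minus strand) were the genes reached by the strongest Pol II peak without H2Bub1, whose summit is in Hist1h1a. Hist2h2ac (chr3:96220881-96221030, minus strand) is a histone gene with H2Bub1 over 100% of its body. Gtf3c6 (chr10:40258109-40258258, minus strand) had the highest Pol II fold of all, and Polr2a (chr11:69758638-69758787, minus strand), the gene of RPB1, had a fold of 25.8 with a covered share of 75.7%. Nxn (chr11:76399141-76399290, minus strand) is the most completely covered long gene, and Tspan9 (chr6:128143595-128143744, minus strand) had the most H2Bub1 among isolated genes without Pol II.
Hist1h1a: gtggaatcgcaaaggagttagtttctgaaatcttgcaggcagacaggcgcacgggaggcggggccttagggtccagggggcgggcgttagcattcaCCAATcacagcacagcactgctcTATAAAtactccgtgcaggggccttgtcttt
Hist1h3a: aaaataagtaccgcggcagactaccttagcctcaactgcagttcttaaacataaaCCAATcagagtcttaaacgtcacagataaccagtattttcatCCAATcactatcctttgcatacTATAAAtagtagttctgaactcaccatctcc
Hist2h2ac: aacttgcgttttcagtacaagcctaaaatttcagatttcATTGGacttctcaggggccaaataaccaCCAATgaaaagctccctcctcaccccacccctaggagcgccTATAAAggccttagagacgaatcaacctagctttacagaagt
Gtf3c6: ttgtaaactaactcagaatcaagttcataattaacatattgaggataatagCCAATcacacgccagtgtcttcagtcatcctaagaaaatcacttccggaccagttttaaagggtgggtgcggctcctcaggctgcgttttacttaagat
Polr2a: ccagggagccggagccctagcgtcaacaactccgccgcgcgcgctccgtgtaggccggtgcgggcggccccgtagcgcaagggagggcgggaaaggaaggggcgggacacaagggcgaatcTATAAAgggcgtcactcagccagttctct
Nxn: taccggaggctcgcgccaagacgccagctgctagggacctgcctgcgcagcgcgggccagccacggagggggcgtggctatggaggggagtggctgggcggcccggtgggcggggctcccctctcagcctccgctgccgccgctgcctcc
Tspan9: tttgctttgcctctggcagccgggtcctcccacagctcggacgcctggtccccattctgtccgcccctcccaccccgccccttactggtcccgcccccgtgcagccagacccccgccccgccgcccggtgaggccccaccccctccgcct

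Hist1h1a and Hist1h3a both carried TATAAA at -31 from the TSS, and Hist2h2ac carried TATAAA at -42. TATAAA was also at -29 of Polr2a, which has H2Bub1, while Nxn and Tspan9 had neither motif in the stretch shown. Both strands of the 300 bases around the TSS, of which 250 lie upstream, were searched for these letters, and matches of either motif were counted as present or absent. Of all 21938 promoters, 12.6% held TATAAA and 39.0% held CCAAT. At the 67 histone genes TATAAA was in 55.2% (42.6 to 67.4%) and CCAAT in 83.6% (72.5 to 91.5%). At the 99 other genes with Pol II and no H2Bub1 the shares were 12.1% (6.42 to 20.2%) and 30.3% (21.5 to 40.4%), close to those of all promoters. Genes with both marks held TATAAA in 6.16% (5.59 to 6.76%), genes with H2Bub1 alone in 8.04% and genes with neither in 21.1%.

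CpG content also differed between the classes. The ratio of observed to expected CpG over the same 300 bases had a median of 0.52 over all promoters, 0.81 at genes with both marks, 0.72 at genes with Pol II alone, 0.59 at genes with H2Bub1 alone and 0.20 at genes with neither. A promoter was called CpG-rich at a ratio of at least 0.6, and 44.4% of all promoters were. Where Pol II was present, H2Bub1 was near complete in both kinds, with 98.3% (98.0 to 98.7%) of 5513 CpG-rich and 95.7% (94.5 to 96.8%) of 1363 CpG-poor genes. Without a Pol II promoter peak they parted: 76.9% (75.6 to 78.2%) of 4221 CpG-rich genes had H2Bub1 and 31.0% (30.1 to 31.9%) of 10841 CpG-poor genes. CpG-rich genes without Pol II were also longer, with a median of 25.8 kb against 11.5 kb.

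Around the TSS, called H2Bub1 peaks began upstream, were most frequent a short way into the gene and outlasted called Pol II peaks. H2Bub1 peaks were called broad and Pol II peaks narrow, with median widths of 1355 and 495 bp. The part this plays in their extent was not tested. Among genes of at least 3 kb, the share of genes inside an H2Bub1 peak was highest at 460 bp in the 2 weakest quintiles and at 340, 400 and 380 bp in the others. At those maxima the share was 90.1%, 92.8%, 95.5%, 95.9% and 97.0% from weakest to strongest. Pol II was centred on the start. At the TSS itself, 63.7% of the weakest and 93.9% of the strongest quintile lay inside a Pol II peak. The Pol II shares had dropped to 4.71% and 16.8% at 1000 bp, where H2Bub1 was still at 82.5% and 92.1%. At the start, 89.2% (88.4 to 89.9%) of the Pol II promoter summits, which sat at a median of 73 bp downstream of the TSS, were inside an H2Bub1 peak. That share was 59.5% in WT mESCs and 80.2% in KO MEFs. A summit inside a broad peak does not show that the maxima of the 2 marks coincide. From average signal profiles, the paper places the H2Bub1 maximum further downstream than that of paused Pol II and reports no overlap of these maxima. The tops of the H2Bub1 curves are broad, from 280 to 600 bp in the weakest and from 180 to 580 bp in the strongest quintile, and these ranges overlap.

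**Figure D3:**
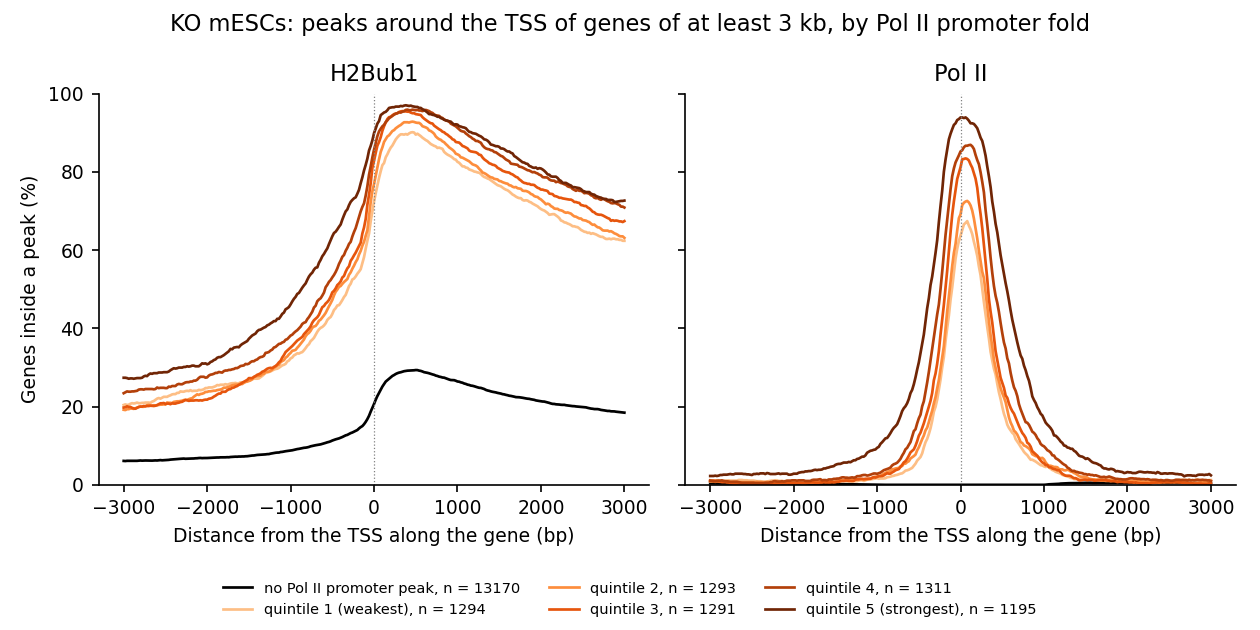
Share of genes inside an H2Bub1 peak (left) or a Pol II peak (right), in percent, by distance from the TSS in bp, for KO mESC genes of at least 3 kb split by quintile of Pol II promoter fold. H2Bub1 reaches 90.1% to 97.0% between 340 and 460 bp in the 5 quintiles, while Pol II is highest around the start. In genes without a Pol II promoter peak, H2Bub1 reaches 29.3% at 500 bp. H2Bub1 peaks were called broad and Pol II peaks narrow.

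How far H2Bub1 reached upstream depended on the neighbouring gene. At 4617 genes with Pol II and no other TSS within 5000 bp, 24.7% (23.5 to 26.0%) were inside an H2Bub1 peak at 1000 bp upstream, 40.6% at 500 bp upstream, 77.6% at the TSS and 94.3% at 500 bp downstream. At 836 genes with a divergent partner that starts within 1000 bp upstream, the shares were 81.6% (78.8 to 84.1%) at 1000 bp upstream, 91.3% at 500 bp upstream and 90.3% at 500 bp downstream. Pol II fold was the same in both sets, with a median of 4.53. The mark was therefore one-sided at lone promoters and nearly symmetric at divergent ones, where the upstream side is the body of the partner.

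The covered share of the body fell with gene length. Under 2 kb the median covered share of genes with Pol II was 100%, followed by 95.0% from 2 to 5 kb, 72.6% from 5 to 10 kb, 54.0% from 10 to 20 kb, 33.9% from 20 to 50 kb, 20.9% from 50 to 100 kb and 9.81% (8.12 to 11.9%) from 100 kb on. In bases the order was the reverse, with medians of 1.03, 2.73, 5.09, 7.85, 10.5, 14.6 and 16.8 kb. Longer genes thus held more H2Bub1 but were covered in a smaller part, and the rho with gene length was -0.55 for covered share and 0.50 for covered bases over the 6876 genes. The share of genes with H2Bub1 was 78.7% under 2 kb, where most of the histone genes lie, and between 97.4% and 99.5% in the other classes. Within length classes, the rho of Pol II fold with covered share stayed between 0.021 and 0.13, except under 2 kb, where it was -0.35 (n = 268). Without a Pol II promoter peak, the share of genes with H2Bub1 went up with length, from 13.3% under 2 kb to 60.01% from 50 to 100 kb, and was 52.8% beyond.

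**Figure D4:**
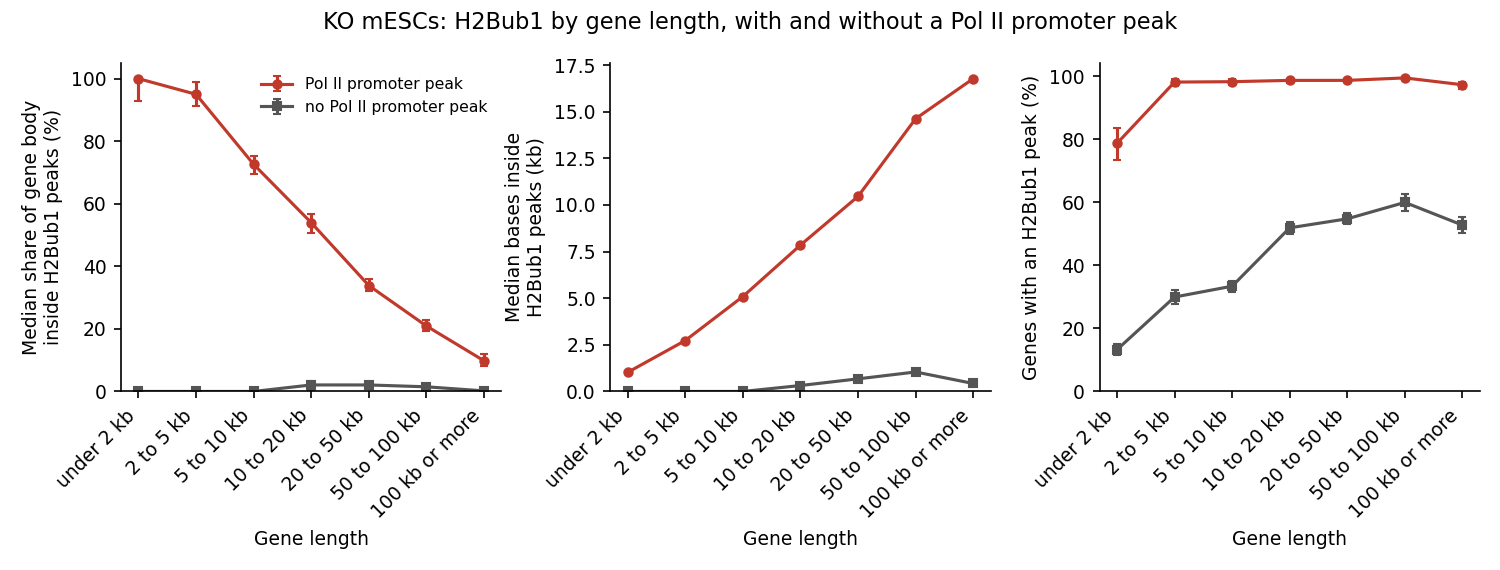
H2Bub1 by gene length in KO mESCs, for genes with (red circles) and without (grey squares) a Pol II promoter peak: median covered share in percent (left), median covered bases in kb (middle) and share of genes with an H2Bub1 peak in percent (right). Bars are exact 95% intervals in the left and right panels. With Pol II, the covered share falls from 100% to 9.81% while the covered bases go from 1.03 to 16.8 kb.

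The median run of H2Bub1 at the start, taken as the called peak there, did not lengthen with the gene beyond 20 kb, and it varied widely between genes. The smallest gap between H2Bub1 peaks was 1089 bp in this list, 933 bp in the WT mESC list and 1193 bp in the KO MEF list. Shorter breaks in the mark would thus not be seen in these runs. Between 91.2% and 94.9% of genes with Pol II in each class of 2 kb or more had an H2Bub1 peak over the base at 500 bp. From the TSS, the run it belongs to had a median of 2.78 kb in genes of 2 to 5 kb, where 52.5% of the runs went on to the end of the gene. Its median was 4.60 kb from 5 to 10 kb, 5.32 kb from 10 to 20 kb, 4.97 kb from 20 to 50 kb, 4.72 kb from 50 to 100 kb and 3.63 kb from 100 kb on. In that longest class the quartiles were 1.67 and 9.91 kb, and from 50 to 100 kb they were 1.98 and 11.3 kb. None of the 760 runs in the longest genes reached the end, for which the exact upper 95% limit is 0.484%. Beyond the first run the mark was broken up: the median number of H2Bub1 peaks per gene was 1 under 10 kb, 3 from 20 to 50 kb and 8 in the longest class. In KO MEFs the run lengthened with the gene, from 3.02 kb in the shortest of these classes to 21.4 kb in the longest, and in WT mESCs it went from 2.45 to 1.51 kb.

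Along the 833 genes of at least 100 kb with Pol II, H2Bub1 thinned out with distance. Peaks held 55.5% of the bases of the first 10 kb, 37.1% of the next 10 kb, 29.1% from 20 to 30 kb and 11.3% from 90 to 100 kb. The 479 of them that lie at least 5000 bp from any other gene gave 57.1% and 12.8% in the first and last step, as high as the whole set. Long genes without a Pol II promoter peak (n = 1659) went from 13.4% to 4.84%. Pol II peaks, which were called narrow, held 4.54% of the bases of the first 10 kb and at most 0.243% of any later step. In WT mESCs the curve went from 26.1% to 4.91%, and in KO MEFs from 76.6% to 25.5%.

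**Figure D5:**
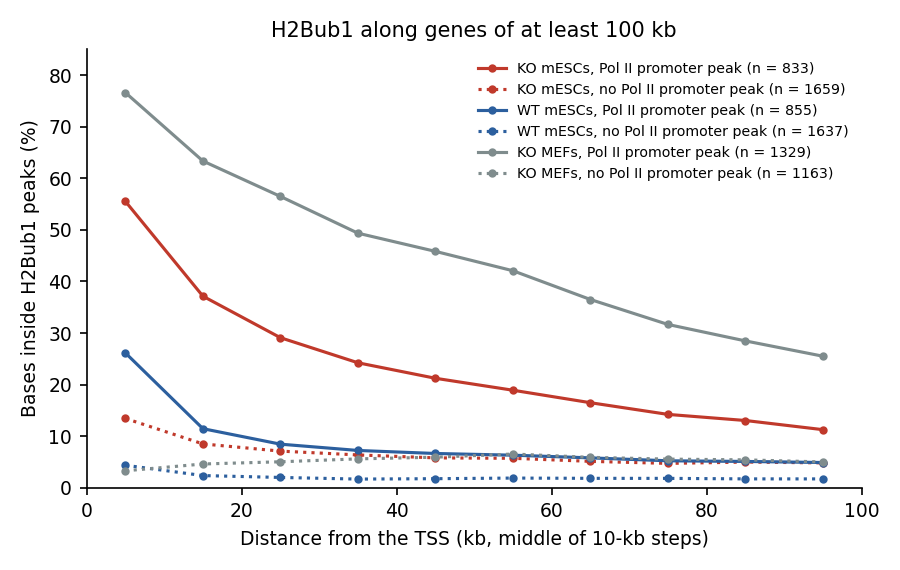
Share of bases inside H2Bub1 peaks (percent) in steps of 10 kb from the TSS, along genes of at least 100 kb, with (solid) and without (dotted) a Pol II promoter peak in KO mESCs, WT mESCs and KO MEFs. The solid KO mESC curve falls from 55.5% to 11.3% and stays between the solid curves of WT mESCs and KO MEFs at every step.

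Some long genes went against this trend and were covered almost throughout. Nxn, the gene of the thioredoxin-like protein nucleoredoxin (chr11:76257198-76399140, minus strand), had H2Bub1 over 98.6% of its 142 kb with a Pol II fold of 4.92. Ankrd11, a chromatin regulator gene of 158 kb, had 94.8% covered at a fold of 7.36. Ctbp2, which codes for a transcriptional corepressor, had 94.2% of 137 kb at a fold of 5.80, from a peak it shares with the Fgfr2 record, and Tcf7l1, a repressor of Wnt target genes, 92.4% of 163 kb at a fold of 3.93. Zmynd8, given above, completes the 5 most covered named genes of this length. Their Pol II folds, from 3.27 to 7.36, spread over the weakest to the strongest quintile. Nxn had 30.8% covered in the WT mESC list and 89.6% in the KO MEF list, whereas Ctbp2 had 85.6% and 93.6%.

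Genes with a Pol II peak further inside the body were covered more. Among promoters with Pol II whose genes span at least 5 kb, 1292 (21.8%) also had Pol II more than 1000 bp downstream, with a median covered share of 55.9% (53.1 to 58.6%). The 4646 genes with Pol II at the promoter alone had 30.8% (29.7 to 32.1%). This held in each length class, with 84.3% against 67.7% from 5 to 10 kb, 73.7% against 48.97% from 10 to 20 kb, 54.6% against 30.0% from 20 to 50 kb, 38.2% against 18.2% from 50 to 100 kb and 22.7% against 7.16% beyond. Promoter fold differed little, with medians of 4.79 and 4.49. A Pol II peak within 1000 bp of the transcript end was present at 680 genes (11.5%), which had a median covered share of 74.4%. Over all genes, the most Pol II bases in the body, summed over peaks, were found in the nonagouti gene (symbol a, 15.8 kb), Spats1 (11.2 kb, with no promoter peak), Fgfr2 (10.9 kb), Zmynd8 (10.3 kb) and Bicral (10.1 kb). The Fgfr2 record, which spans 2.96 Mb, and the record of a both overlap other genes, whose Pol II is counted in them.

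Towards the transcript end H2Bub1 faded while Pol II came up past the end. At 1232 genes of 5 to 50 kb with Pol II and no other gene within 5000 bp, 29.7% were inside an H2Bub1 peak at 2000 bp before the end, 23.8% at 1000 bp before it and 16.2% (14.1 to 18.3%) at the end. Past the end the share was 9.90% at 1000 bp and 7.06% at 3000 bp, where 4345 such genes without Pol II had 1.70%. Pol II went the other way, with 0.97% at the end and 4.30% at 1000 bp past it.

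The 6606 genes with H2Bub1 and no Pol II promoter peak were sorted by where the nearest Pol II was, each gene into the first class that held for it. At 650 (9.84%) Pol II was at another annotated TSS of the same gene, and these had a median covered share of 37.3%. At 641 (9.70%) it was elsewhere in the body, with 33.4% covered. A further 1249 (18.9%) had no Pol II but lay within 5000 bp of one that had it at the promoter, with 27.6% covered. Another 890 (13.5%) had a Pol II promoter peak in WT mESCs only, with 28.1% covered. The last 3176 (48.1%) met none of these, and had the lowest cover, with a median of 12.1% (11.1 to 13.03%) and 2.27 kb. Even so, 57.4% of these 3176 had H2Bub1 over the base at 500 bp past the TSS. H2Bub1 was also called at 61.7% of the 3176 in WT mESCs, the lowest share of these classes. The WT share was 74.3% over the 6606 and 53.6% over all genes.

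Some genes without Pol II held much H2Bub1, in bases summed over their peaks. Among genes with no Pol II at the promoter or in the body and no other gene within 5000 bp, Tspan9, which codes for a tetraspanin of the cell membrane (chr6:127961396-128143594, minus strand), had 142 kb of H2Bub1 and a covered share of 77.8%. Trak1, an adaptor that links mitochondria to motor proteins, had 133 kb and 74.8%. St6galnac3, a sialyltransferase gene of 527 kb, had 104 kb and 19.8%. Gab1, a docking protein of growth factor receptors, had 97.1 kb and 83.6%, and Gcnt2, a glucosaminyltransferase gene, 93.2 kb and 92.1%. Their H2Bub1 folds ran from 2.70 to 3.43, around the median of 3.22 of genes with both marks. Of the 5, Gab1 and St6galnac3 had a Pol II promoter peak in the WT mESC list, with folds of 7.32 and 3.00, and Tspan9, Trak1 and Gab1 had one in the KO MEF list, with folds of 14.2, 15.1 and 10.8.

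Esrrb, a pluripotency gene with many start sites, shows what the rule on the TSS leaves out. It had no Pol II peak within 1000 bp of the TSS of its gene record but a fold of 5.61 at another annotated TSS, 4.56 kb of Pol II in the body and 57.1% of 161 kb covered. The other pluripotency genes named here, most of them after their values were seen, were densely marked except Lin28a. Pou5f1 and Nanog had the same Pol II fold of 3.55, in the weakest quintile, and H2Bub1 over 100% of the body. Sox2 had a fold of 9.41 and 100%, Klf4 11.8 and 83.3%, and Tfcp2l1, the highest of the list, 16.6 and 72.6%. Zfp42 had 3.75 and 100%. Utf1 had no Pol II peak and 100% covered, whereas Lin28a had no Pol II peak and 10.0%. Full cover was found at weak and strong promoters of the list alike.

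Housekeeping families were covered over most of the body at the median, the cytosolic ribosomal protein genes almost in full. Of 78 cytosolic ribosomal protein genes, 73 had Pol II, with a median fold of 7.99 and 52 in the strongest quintile, and all 78 had H2Bub1, with a median covered share of 99.8% over short bodies (median 3.33 kb). Rps12 had the highest fold, 16.3, with 87.0% covered, and Rpl11 the lowest cover, 21.0%, in a gene record of 25.2 kb. The 78 mitochondrial ribosomal protein genes all had H2Bub1 as well, but 48 had Pol II, with a median fold of 4.35 and 57.3% covered. Of 40 proteasome subunit genes, 18 had Pol II and 37 had H2Bub1 (median 50.8%). Of 46 genes of complex I of the respiratory chain, 17 had Pol II and 45 had H2Bub1 (median 61.4%). The 16 gene records of glycolysis all had H2Bub1 (median 65.9%), 11 of them with Pol II, led by Gapdh with a fold of 9.45 and 82.7% covered. H2Bub1 was called at nearly all members of these families and Pol II promoter peaks at a varying part. Over all genes the shares were 60.8% for H2Bub1 and 31.3% for Pol II.

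Genes that respond within minutes of a stimulus, the immediate early genes, were marked at 16 of 17, with Pol II at 9 and a median covered share of 69.0%. Jund had the highest fold, 15.7, and 100% covered, and Btg2 had 7.59 and 100%. Fos had 3.20 and 40.2%, while Egr3 had neither mark. Sensory receptor genes, which stem cells do not use, are given as a background. None of 1135 olfactory receptor genes had a Pol II promoter peak, and 6 had H2Bub1, and of 329 vomeronasal receptor genes none and 1. Developmental and zinc finger genes are to be read against 31.3% of all genes with Pol II and 60.8% with H2Bub1, and the H2Bub1 counts of the first 2 lists are near that share. Of 39 Hox genes, 5 had Pol II and 24 had H2Bub1, with a median covered share of 10.9%, and of 24 transcription factors of early lineages, 3 and 14, with 2.12%. Zinc finger genes named Zfp, a large family of DNA-binding proteins, had Pol II at 123 of 394, near the share of all genes, and H2Bub1 at 327, with a median of 17.6%.

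The genes of the machinery itself were unevenly covered, and their counts stand beside 31.3% of all genes with Pol II and 60.8% with H2Bub1. Among the 8 genes of the H2B protease module, 6 had Pol II and 7 had H2Bub1, with a median covered share of 31.4%. Usp22 had a fold of 4.52 and 71.5%, Usp27x 4.57 and 54.4%, and Usp51 neither mark. Eny2, a small subunit of the module, had a fold of 6.51 and 6.44%, and Atxn7, which anchors it to the SAGA complex, 3.96 and 1.79% of 146 kb. All 12 genes of the ubiquitin ligase, the PAF complex and the histone chaperone FACT had H2Bub1 and 11 had Pol II, with a median covered share of 31.9%. Within this list Rnf20 had a fold of 3.91 and 8.25%, while its partner Rnf40 had no Pol II peak and 79.4%. Cdc73 of the PAF complex had the lowest cover, 4.58%, and Ube2a the highest fold, 11.2, with 33.1% covered. The 12 Pol II subunit genes all had H2Bub1 (median 76.0%) and 7 had a Pol II peak. All 16 genes of pausing and elongation factors had H2Bub1 (median 75.5%) and 12 had Pol II, among them Hexim1, an inhibitor of the elongation kinase, with a fold of 17.6 and 100%, Cdk9, that kinase, with 4.57 and 100%, and Cdk13 with 5.13 and 9.25%. Genes of this machinery other than the highest and lowest of each list were named after their values were seen.

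Genes that the study displayed were spread over the same range. Klhl11, of the Kelch-like family of ubiquitin ligase adaptors, had a Pol II fold of 6.52 and 100% covered, and its neighbour Acly, an enzyme of lipid synthesis, 3.36 and 70.1%. Cmip had 4.95 and 88.8% of 202 kb. Bud13 had 4.57 and 54.1%. Zpr1 and Pgk1, the latter a glycolytic enzyme gene, had no Pol II promoter peak, with 55.0% and 42.5% covered. In the KO MEF list these 6 had a Pol II promoter peak, with folds from 8.70 to 20.8. Their covered shares there ran from 9.03% at Acly to 100% at Klhl11.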

How the data were processed

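ChIP-seq peak lists of H2Bub1 and of Pol II were used from KO mESCs, WT mESCs and KO MEFs, 1 library each (6 peak lists). Per the submitters' processing notes, Bowtie 1.0.0, MACS2 2.1.1.20160309 and bcl2fastq 2.17.1.14 were used, on mm10, which is GRCm38. The deposited H2Bub1 peaks are broad peaks and the deposited Pol II peaks narrow peaks with a summit. In each list the authors give a linear ratio (fold over background, column 7), a deposited −log10 p-value and −log10 q-value, a display score, and for Pol II a summit offset. The authors scaled H2Bub1 signal by size factors over intergenic regions and Pol II by total mapped reads, and state that samples were normalized before peaks were called. How the scaling entered the calls is not given in the sources used here, nor are the control, the calling thresholds, the treatment of reads that map to several places, or the read depth.

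Genes were the protein-coding genes of GENCODE M21 with 1 TSS each (the 5′ end of the gene record), in 1-based coordinates. A promoter peak overlapped the window within 1000 bp of the TSS, and H2Bub1 was called at an overlap of 1 bp or more with the body. The marks were related by quintiles of Pol II fold, by length class and by gene list. Computation used scipy 1.17.1, pandas 2.3.3 and numpy 2.4.6 in Python 3.11.15, with figures from matplotlib 3.10.9, and the scripts were checked on simulated data. Shares carry exact Clopper-Pearson intervals, medians exact binomial intervals and rho a Fisher interval, all at 95%. Named genes were the top 5 (predicted genes skipped) by Pol II fold, by Pol II fold without H2Bub1, by covered share at 100 kb or more, by covered bases at genes without Pol II or a near neighbour, and by Pol II bases, plus the highest and lowest of each list and genes the study displayed, of which 1 is not reported here. Genes outside this rule, among them several pluripotency, immediate early, histone and machinery genes, were named after their values were seen. The members, lists and comparisons were chosen with earlier results of these data known. WT MEF lists, Ser2P Pol II and input libraries were not analysed here.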

Additional observations from a re-analysis of the deposited data

How the results depend on the processing

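Each of 6 main results was recomputed under up to 10 settings. Of 57 such values, 38 stayed within the interval or within 1.5 times the count, 19 moved and none reversed. Only the quintile difference and rho could have reversed, since shares, medians and counts cannot change sign. The results are the share of Pol II promoter genes with H2Bub1 (97.8%), their median covered share (40.8%), the difference between the strongest and weakest quintile (11.5 points), rho of fold with covered share (0.066), the genes with H2Bub1 and no Pol II promoter peak (6606) and the genes with Pol II alone (150). With peaks at a −log10 q of at least 3, the share was 88.1%, the median 21.5%, rho 0.10, and the counts 3827 and 789. With genes at least 5000 bp from any other gene, the share was 98.6%, the median 34.4%, the difference 19.3 points, rho 0.13, and the counts 2431 and 33. With the first 1000 bp of the body left out, which also drops genes under 2000 bp and so most histone genes, the share was 95.1%, the median 36.3% and the genes with Pol II alone 327. With H2Bub1 called only at 10% cover or more, the share was 81.0% and the counts 4340 and 1305. Without the replication-dependent histone genes, a setting chosen after seeing the data, the share was 98.5% and the genes with Pol II alone 99. Fewer peaks, genes or bases enter by construction in these settings; otherwise the cause was not tested. Joining H2Bub1 peaks less than 1000 bp apart altered nothing, since the smallest gap in the list is 1089 bp. Its values are thus among the 38 by construction. No paired analysis was possible because each group is 1 library. With unknown depth, a gene without a peak had no peak called at this depth, and a share of covered bases moves with the sensitivity of the library.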

Other observations

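Pol II peaks away from promoters were a large part of the KO mESC list. Of its 11963 Pol II peaks, 6271 (52.4%) lay at a promoter of a protein-coding gene, 3096 (25.9%) elsewhere in a gene body and 2596 (21.7%) between genes. Summits were inside an H2Bub1 peak at 88.6% of promoter peaks, 74.9% of gene body peaks and 49.3% of peaks between genes. In WT mESCs the shares were 57.7%, 58.5% and 25.8%, and in KO MEFs 77.8%, 68.1% and 18.4%. Seen from H2Bub1, 89.0% of the bases in KO mESC peaks were in bodies of protein-coding genes, and 56.6% in bodies of genes with a Pol II promoter peak. That last share was 63.3% in WT mESCs and 88.0% in KO MEFs.

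Chromosome X had a lower covered share than the autosomes in KO mESCs. Its 204 genes with Pol II had a median covered share of 21.6% (17.6 to 28.0%), against 41.4% (40.2 to 43.0%) at 6672 autosomal genes. Gene length was alike, with medians of 24.0 and 24.1 kb, and so was Pol II fold, with 4.58 and 4.53. H2Bub1 was called at 98.0% and 97.8% of these genes, so the values differ in cover and not in the share of marked genes. In WT mESCs, where 91 genes of chromosome X had Pol II, the medians were 2.54% and 17.6%, and in KO MEFs 28.0% and 50.5%. The sex chromosomes of the cell lines are not stated in the labels used here, and their part in this was not tested.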
